A study of Mus musculus with 4 samples.

Results

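The genes described here are 10 members of the immunoglobulin superfamily of cell adhesion molecules: the myelin protein zero-like genes Mpzl1, Mpzl2 and Mpzl3, Cadm1, the nectins Nectin2 and Nectin3, the junctional adhesion molecules Jam2, Jam3 and F11r, and Cxadr. They were taken by gene symbol from a table of 25265 genes, and all 10 had enough counts to be among the 21132 genes tested. The choice began from Mpzl2, which had already been seen to differ between the genotypes, and the other 9 genes were added by family. The genotype differences of the 10 genes are therefore given as a description, without tests of their own.

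The study compared whole testes of C57BL/6 mice at postnatal day 56, with 2 control libraries and 2 that carry the label Ythdf2-vKO, called vKO-labelled below. Ythdf2 encodes a cytoplasmic reader of N6-methyladenosine (m6A) in RNA, and the series title describes a germ cell-specific mutation. The labels do not give the Cre driver, the deleted segment or the genotype of the controls beyond the word control. Nor do they tie the libraries to separate animals, so spreads and p-values measure differences between these libraries only, which may be technical.

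Adhesion molecules of this superfamily carry extracellular immunoglobulin-like domains that bind a partner on the neighbouring cell, and short cytoplasmic tails that bind scaffold proteins such as afadin. In the seminiferous epithelium, Sertoli cells hold developing germ cells through such pairs. Nectin-2 on Sertoli cells binds nectin-3 on spermatids, and JAM-B, encoded by Jam2, binds JAM-C, encoded by Jam3. The protein of Cadm1 is present on spermatogenic cells, and male mice without it are infertile. MPZL2, also called epithelial V-like antigen, is a homophilic adhesion protein described in thymic and other epithelia.

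The libraries held 24862518 and 29561182 counts in the controls and 26298245 and 26265700 in those labelled vKO. Ythdf2 itself had 1193 and 1604 counts in the controls and 1774 and 1807 in the vKO-labelled libraries, so its transcript was not lower there (log2 fold change 0.35, SE 0.13), and directions below refer to the labels. Germ cell and somatic markers were both present in every library, and no gene of the 11 marker lists that is in the table was at 0 counts. Of the marker genes, Wt1 of the Sertoli list was called at an adjusted p under 0.05 (log2 fold change 0.71, SE 0.13, adjusted p = 0.0418 by edgeR's quasi-likelihood F test, Benjamini-Hochberg adjusted over all genes tested, higher in 2 of 2 vKO-labelled libraries). That call was lost in a fit without robust estimation (adjusted p = 0.0501), without vKO replicate 1 (0.338) and without vKO replicate 2 (0.0824), over a range from 0.000274 to 0.338. In bulk tissue, fewer cells of a type and less RNA per cell cannot be told apart.

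Of the 10 adhesion genes, Mpzl2 alone was called at an adjusted p under 0.05, beside 0.393% of all genes tested. Counts of Mpzl2 were 2 and 12 in the controls and 126 and 125 in the vKO-labelled libraries. The remaining 9 genes had log2 fold changes between -0.26 for Cxadr and 0.72 for Mpzl3. The groups did not overlap in 7 of the 10, beside 45.3% of all genes tested. Of these, 4 lay higher in the vKO-labelled libraries, beside 22.7% of all genes, and 3 lower, beside 22.6%. At an unadjusted p under 0.05 there were 2 of the 10, Mpzl2 and Jam2, beside 14.1%. The median log2 fold change of the 10 was 0.10, beside 0.00265 over all genes tested. Since Mpzl2 was chosen on this contrast, nothing is read from these counts.

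**Figure D1:**
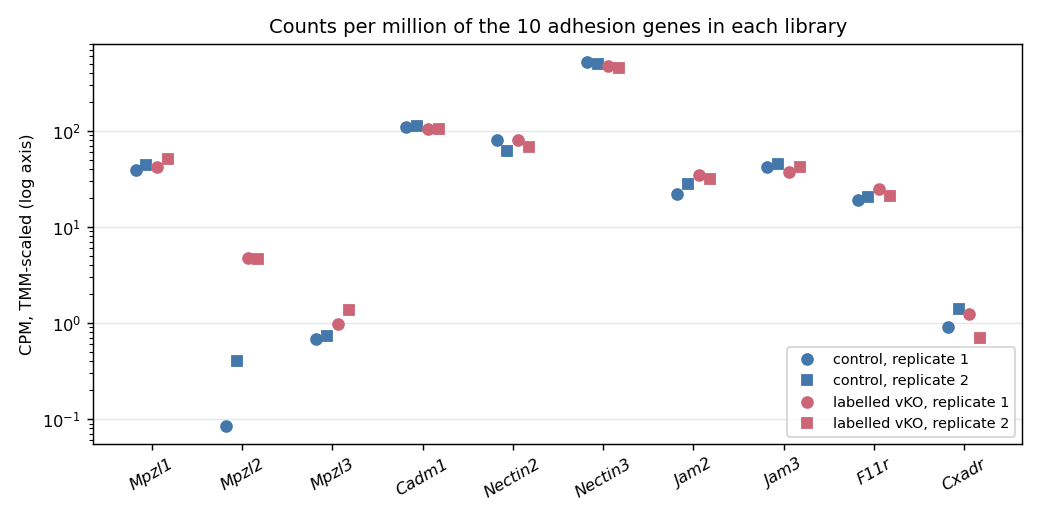
Read counts relative to library size (CPM, scaled between libraries by TMM, log axis) of the 10 adhesion genes, with 1 point per library; blue is control, red is labelled vKO, circles are replicate 1 and squares replicate 2. Mpzl2 lies at 0.0856 and 0.400 in the controls and at 4.71 and 4.63 in the vKO-labelled libraries, and the points of each other gene lie closer together.

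Mpzl2 (ENSMUSG00000032092) lies on chromosome 9, plus strand, 45039799 to 45054015 in GRCm38, the build of all coordinates here. Levels of Mpzl2 were 0.0856 and 0.400 CPM in the controls and 4.71 and 4.63 CPM in the vKO-labelled libraries. Both vKO-labelled libraries were far above both control libraries, and they differed little from each other. The means were 0.243 ± 0.223 CPM in the controls and 4.67 ± 0.052 CPM in the vKO-labelled libraries (SD, n = 2 each), a log2 fold change of 4.15 (SE 0.46, 95% interval 3.17 to 5.14).

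The size of the Mpzl2 difference rests on few control reads. Exact 95% Poisson intervals for the control counts ran from 0.242 to 7.22 around the 2 counts of replicate 1 and from 6.2 to 21.0 around the 12 counts of replicate 2. Taking both vKO-labelled libraries together, the ratio was 54.6 against control replicate 1 (Clopper-Pearson 95% interval 15.0 to 453) and 11.7 against control replicate 2 (6.56 to 22.9). Against both control libraries it was 17.8 (10.4 to 33.0). These intervals cover counting error only and no variation between libraries, and the reads carry no molecular identifiers. Mpzl2 passed the filter of the main fit through its vKO-labelled libraries, where its counts were high. A filter of at least 10 counts in every sample removed Mpzl2 and left 0 of the 10 genes called, beside 0.534% of genes. The fitted log2 fold change was 5.69 without control replicate 2 and 3.52 without control replicate 1.

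The annotation places another gene across much of Mpzl2. Gm48840, of a biotype that awaits experimental support, lies on the opposite strand and covers 2138 nt of the exons of Mpzl2, which is 30.7% of all its annotated exon sequence and 68.8% of its 3107 nt coding transcript. The libraries were directional, per the labels, but whether the counting used the strand is not given in the sources used here. Gm48840 had 49 and 103 counts in the controls and 84 and 78 in the vKO-labelled libraries, so its groups overlapped. The ratio of Mpzl2 to Gm48840 counts within a library was 0.0408 and 0.117 in the controls and 1.5 and 1.6 in the vKO-labelled libraries. Apart from this overlap, no transcript of another gene matched the coding transcript of Mpzl2 at 90% identity or more over at least 100 nt.

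The reader protein encoded by Ythdf2 binds m6A, which is placed in a short consensus of which GGACT is a common form. The longest coding transcript of Mpzl2 was searched for GGACT on its own strand and held 1 match, in the 5′ untranslated region. It is shown beside the 6 matches of Mpzl3, the adjacent family member, all in the 3′ untranslated region. Each line gives the match in capitals with the 12 bases on either side, from GENCODE M21 transcripts of GRCm38.
Mpzl2 site 1: cccataggtgagGGACTcggacctctccg
Mpzl3 site 1: aactcgcagaagGGACTcatgacttccct
Mpzl3 site 2: gtaggcttgtttGGACTgggccttttaag
Mpzl3 site 3: ttgatgctctgtGGACTcaaaccccagcg
Mpzl3 site 4: gttttacgcggtGGACTcttaaaactatt
Mpzl3 site 5: aagtcagcagtgGGACTtcagaaggaaaa
Mpzl3 site 6: cattctgaagaaGGACTctaagaagatcc

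Among the 10 genes, Mpzl2 had the fewest matches per length, at 0.322 per kb, and Mpzl3 had the most, at 1.75 per kb. The median over 15845 coding genes tested was 1.05 per kb, and 91.0% of them held at least 1 match. Densities of the others were 1.59 per kb in F11r, 1.37 in Jam2, 1.10 in each of the nectins, 1.03 in Jam3, 0.875 in Mpzl1, 0.697 in Cxadr and 0.669 in Cadm1. A match to these letters is a description of the sequence and does not show methylation or binding.

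Mpzl3, whose protein is known from skin, begins 1170 nt beyond the end of Mpzl2 on the same strand of chromosome 9 (45055186 to 45077436). Its counts were 16 and 22 in the controls and 26 and 37 in the vKO-labelled libraries. The groups did not overlap, but all 4 values were low. Its level was 0.709 ± 0.0349 CPM in the controls and 1.17 ± 0.283 CPM in the vKO-labelled libraries (SD, n = 2 each), and the 95% interval of its log2 fold change of 0.72 ran from -0.27 to 1.71. Within a library, the ratio of Mpzl2 to Mpzl3 counts was 0.13 and 0.55 in the controls and 4.85 and 3.38 in the vKO-labelled libraries.

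Mpzl1 (chromosome 1, minus strand, 165592240 to 165634538) encodes a receptor whose tail recruits the phosphatase SHP2. It had 39.1 and 44.2 CPM in the controls and 42.1 and 50.7 CPM in the vKO-labelled libraries. The groups overlapped, and the log2 fold change was 0.15 (SE 0.14). Without vKO replicate 2 it was 0.01. The 3 genes of this family thus had log2 fold changes of 4.15, 0.72 and 0.15.

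**Figure D2:**
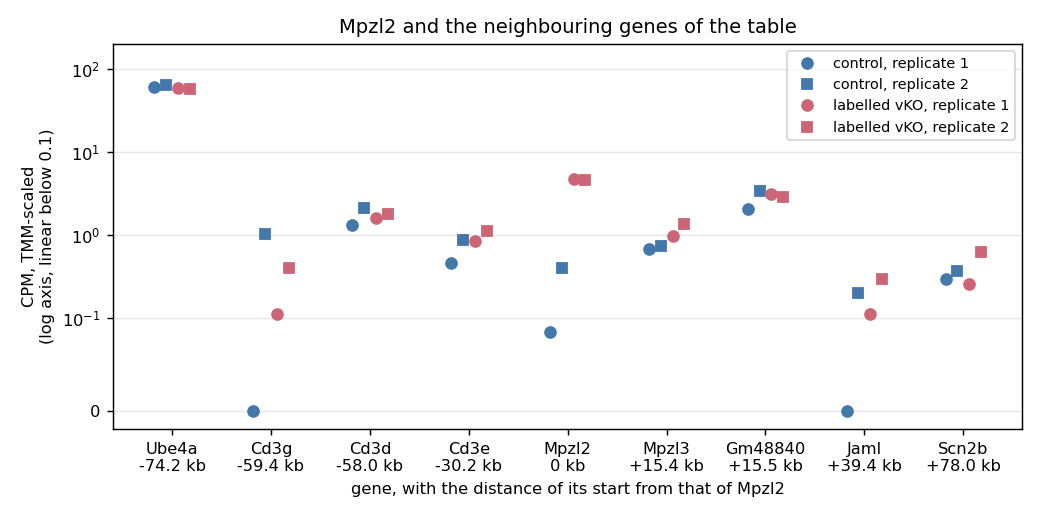
TMM-scaled CPM in each library (log axis, linear below 0.1) of Mpzl2 and of the 8 genes of the table that lie within 100 kb of it, ordered by the distance of their starts. At Mpzl2 the vKO-labelled libraries lie at 4.71 and 4.63 and the controls at 0.0856 and 0.400, and at each neighbour the groups overlap or lie closer together.

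The surroundings of Mpzl2 were examined for other genes that differed. The annotation lists 14 genes within 100 kb of Mpzl2, of which 8 are in the table and 6 were tested. By edgeR, 0 of the 6 were called and 0 had an unadjusted p under 0.05, beside 0.393% and 14.1% of all genes tested. With 6 genes, these counts lie near the background. Upstream lie the genes of the T cell receptor complex, Cd3e, Cd3d and Cd3g, and the ubiquitin ligase gene Ube4a. Cd3e, the nearest of these, had 11 and 26 counts in the controls and 23 and 30 in the vKO-labelled libraries. Cd3d had 31 and 63 counts in the controls and 43 and 48 in the vKO-labelled libraries, and Cd3g had 0 and 31 in the controls and 3 and 11 in the vKO-labelled libraries. The groups overlapped in all 3 of these genes.

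Ube4a, the neighbour with the most counts, had 1417 and 1917 counts in the controls and 1572 and 1549 in the vKO-labelled libraries, a log2 fold change of -0.10 (SE 0.13). Downstream of Mpzl3, Jaml encodes a junctional adhesion molecule-like protein of leukocytes that binds the product of Cxadr. Jaml had 0 and 6 counts in the controls and 3 and 8 in the vKO-labelled libraries. Scn2b, which encodes a sodium channel subunit with an immunoglobulin-like domain, had 7 and 11 counts in the controls and 7 and 17 in the vKO-labelled libraries. Jaml and Scn2b were too low to be tested.

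The genes whose values over the 4 libraries lay closest to those of Mpzl2 were found by the Euclidean distance of log2 CPM centred on each gene's mean. They were Wnt4 (distance 0.589), Klk1b1 (1.20), Robo4 (1.24), Serpina3i (1.25) and Tnni1 (1.33), against a median distance of 4.26 over all genes tested. Control replicate 1 held between 0 and 6 counts of each of these 5 genes, and control replicate 2 between 3 and 20. With 4 libraries in 2 groups, closeness in this measure says little beyond a similar difference between the groups.

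Epithelial markers were compared beside Mpzl2, since its protein is best known from epithelia. Of 13 duct epithelium markers, 12 are in the table, and their summed level was 67.4 to 68.7 CPM in the controls and 57.4 to 59.5 CPM in the vKO-labelled libraries. Of the 11 tested, 8 had a log2 fold change below 0. Epcam, the most abundant of them and also a gene of spermatogonia, had 31.8 ± 4.13 CPM in the controls and 30.7 ± 0.357 CPM in the vKO-labelled libraries (SD, n = 2 each). The keratin gene Krt8 had a log2 fold change of -0.56 (SE 0.18), and Grhl2, an epithelial transcription factor gene, of -1.02 (SE 0.27). Cldn4 and Krt19 were on the other side, with log2 fold changes of 1.58 (SE 0.65) and 0.85 (SE 0.60) from 3 to 22 counts in a library. Pax2 was also above 0, at 0.32 (SE 0.25), with 104 and 98 counts in the controls. It had 127 and 130 counts in the vKO-labelled libraries. Of the 11 markers tested, the groups did not overlap in 3 higher, Pax2 among them, and 3 lower, beside 22.7% and 22.6% of all genes tested. None of these genes was called. Of 6 epididymal markers, 2 were analysed here. Rnase10 had 8.13 and 7.57 CPM in the controls and 5.34 and 5.93 CPM in the vKO-labelled libraries, and Crisp1 had counts of 1 and 5 against 9 and 3.

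Cadm1 (chromosome 9, plus strand, 47530173 to 47857637), the adhesion gene of spermatogenic cells, was among the more abundant of the 10. It had 109 and 112 CPM in the controls and 104 and 105 CPM in the vKO-labelled libraries. The groups did not overlap, but the values differed by little, with a log2 fold change of -0.08 (SE 0.12, 95% interval -0.34 to 0.18). Beside it, the summed level of 8 spermatocyte markers was 1482 to 1541 CPM in the controls and 1364 to 1470 CPM in the vKO-labelled libraries, and their part in the value of Cadm1 was not tested.

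Nectin3 (chromosome 16, minus strand, 46387706 to 46498525), the nectin of spermatids, took 60.2% of the summed CPM of the 10 genes. It had 518 and 497 CPM in the controls and 468 and 452 CPM in the vKO-labelled libraries. The groups did not overlap, with a log2 fold change of -0.14 (SE 0.11, 95% interval -0.39 to 0.11). Beside this, the summed level of 8 elongating spermatid markers was 9091 to 11043 CPM in the controls and 8520 to 8736 CPM in the vKO-labelled libraries, and that of 6 round spermatid markers was 963 to 1005 and 968 to 1041 CPM. Their part in the difference was not tested.

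Nectin2 (chromosome 7, minus strand, 19716644 to 19750483), the partner on Sertoli cells, had 80.8 and 62.1 CPM in the controls and 79.4 and 68.3 CPM in the vKO-labelled libraries. The spread within each group was larger than the difference between their means, with a log2 fold change of 0.05 (SE 0.15). With an offset for GC content its sign turned, to -0.14, and Nectin2 had the highest GC content of the 10 genes, at 58.0%. Across genes, a library's deviation from each gene's mean log2 CPM was correlated with GC content. The Spearman correlation was 0.0234 and -0.399 in the controls and 0.254 and 0.188 in the vKO-labelled libraries. Both vKO-labelled libraries lay above both controls in this trend, but the controls also lay far apart, with control replicate 2 the lowest. The trend limits every genotype comparison here and not that of Nectin2 alone. The ratio of Nectin3 to Nectin2 counts within a library was 6.41 and 8.002 in the controls and 5.90 and 6.62 in the vKO-labelled libraries, so this ratio overlapped between the groups. A part of Nectin2 of 135 nt, or 3.86% of its exon sequence, is shared with the antisense gene Gm20512.

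Jam2 (chromosome 16, plus strand, 84774123 to 84825928) encodes JAM-B, which Sertoli and endothelial cells carry. It had 22.2 and 27.8 CPM in the controls and 34.8 and 31.7 CPM in the vKO-labelled libraries. Both vKO-labelled libraries were above both control libraries. The means were 24.98 ± 3.92 and 33.3 ± 2.21 CPM (SD, n = 2 each), a log2 fold change of 0.41 (SE 0.15, 95% interval 0.08 to 0.74), and Jam2 was not called. Without control replicate 2 the log2 fold change was 0.58 and the gene was called, in a fit that called 4.93% of all genes, and without control replicate 1 it was 0.25.

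Markers of Sertoli and endothelial cells were compared beside Jam2. The summed level of 10 Sertoli markers was 833 to 891 CPM in the controls and 1035 to 1184 CPM in the vKO-labelled libraries, and all 10 had a log2 fold change above 0, with a median of 0.39. The 8 endothelial markers summed to 31.3 to 41.8 CPM in the controls and 46.9 to 53.6 CPM in the vKO-labelled libraries, with a median log2 fold change of 0.43 over the 7 tested. Of these 7, 6 were above 0, and Egfl7 was below at -0.43 (SE 0.28). The groups did not overlap in 4 of the 7 that were higher and in 1 that was lower, Egfl7, beside 22.7% and 22.6% of all genes tested. The medians of 8 Leydig and 11 spermatogonia markers were also above 0, at 0.38 and 0.28. The part of these markers in the value of Jam2 was not tested.

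Jam3 (chromosome 9, minus strand, 27097384 to 27155421) encodes JAM-C, the partner that spermatids need for their polarisation. It had 41.8 and 45.6 CPM in the controls and 37.6 and 41.5 CPM in the vKO-labelled libraries. The groups lay next to each other without overlapping, with a log2 fold change of -0.14 (SE 0.14). The antisense gene Gm48796 shares 1159 nt with Jam3, which is 36.2% of its exon sequence, and had 17 to 30 counts in a library.

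The JAM-B and JAM-C genes thus lay on opposite sides of 0, and their ratio within a library does not depend on the scaling between libraries. The ratio of Jam2 to Jam3 counts was 0.532 and 0.609 in the controls and 0.926 and 0.763 in the vKO-labelled libraries. Both vKO-labelled libraries were above both control libraries, and the mean of the log2 ratios was higher by 0.56 in the vKO-labelled group. This ratio was chosen after the values of both genes were seen, and it is given without a test.

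**Figure D3:**
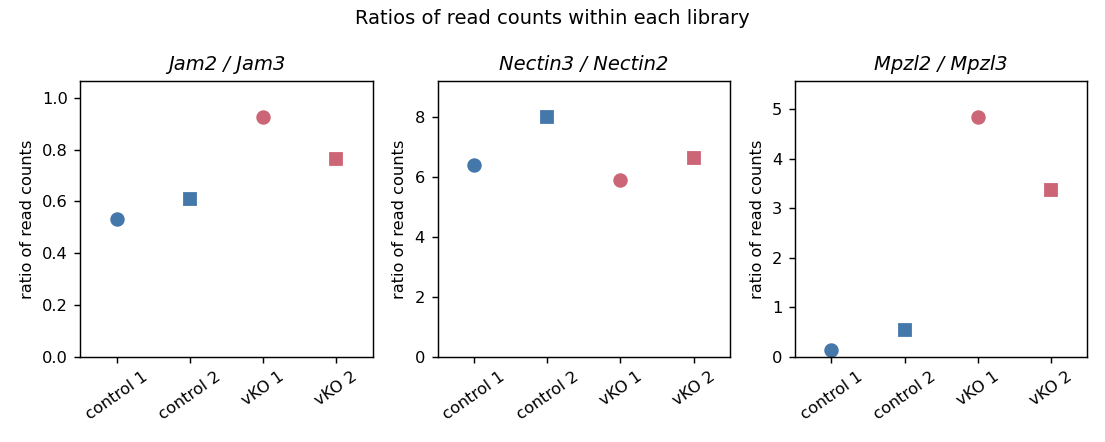
Ratio of read counts within each library (linear axis from 0) for Jam2 over Jam3, Nectin3 over Nectin2 and Mpzl2 over Mpzl3, with blue for control and red for labelled vKO. The groups are apart for Jam2 over Jam3 and for Mpzl2 over Mpzl3, and overlap for Nectin3 over Nectin2.

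F11r (chromosome 1, plus strand, 171437535 to 171464603) encodes JAM-A, a tight junction protein of epithelial and endothelial cells. It had 19.0 and 20.4 CPM in the controls and 24.7 and 21.2 CPM in the vKO-labelled libraries. The lowest vKO-labelled library lay just above the highest control library, and the log2 fold change was 0.22 (SE 0.15, 95% interval -0.12 to 0.55). Without vKO replicate 1 it was 0.10.

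Cxadr (chromosome 16, plus strand, 78301489 to 78359774) encodes the coxsackie and adenovirus receptor, a junction protein of epithelia and of the seminiferous epithelium. Its counts were 21 and 42 in the controls and 33 and 19 in the vKO-labelled libraries. The groups overlapped in part, with the lowest of the 4 libraries labelled vKO and the highest a control, and the log2 fold change of -0.26 had a 95% interval from -1.26 to 0.74, wide on both sides of 0. The sign turned without control replicate 2 (0.11) and without vKO replicate 2 (0.09). Cxadr shares 695 nt, or 9.39% of its exon sequence, with Btg3 on the opposite strand.

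**Figure D4:**
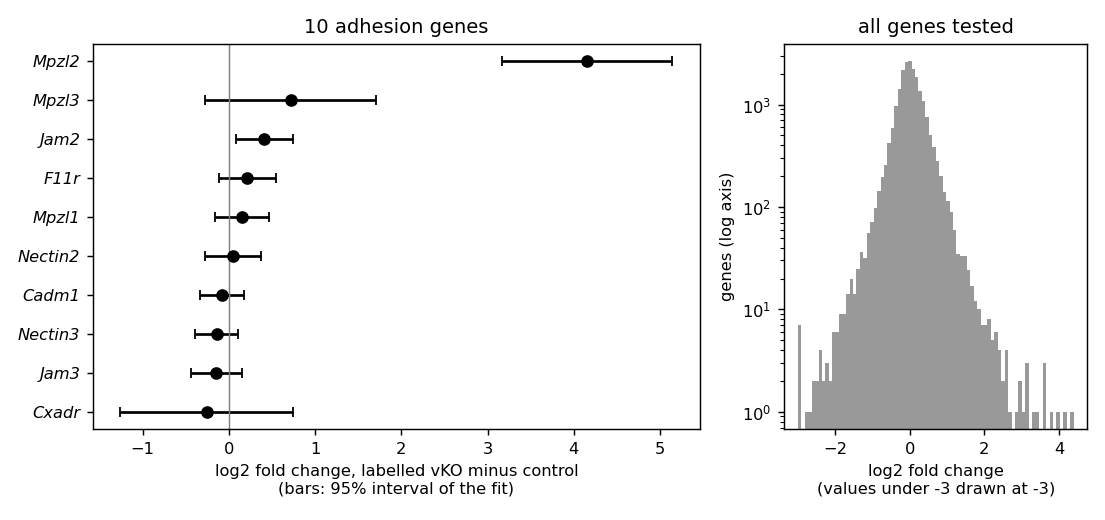
Left, log2 fold change of each of the 10 adhesion genes (labelled vKO minus control) with its 95% interval from the edgeR fit; right, the log2 fold changes of all genes tested, with the number of genes on a log axis. Mpzl2 lies at 4.15, the interval of Jam2 runs from 0.08 to 0.74, and the intervals of the other 8 genes include 0.

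To compare levels between genes, CPM were divided by the length of each gene's annotated exons in kb. Over the 4 libraries, Nectin3 was the highest at 38.0 ± 2.30 CPM per kb and Nectin2 followed at 20.8 ± 2.57 (SD, n = 4 libraries of both groups). Jam3 (13.0 ± 1.02) and Mpzl1 (12.4 ± 1.38) could not be separated, since their libraries overlapped. Cadm1 (10.3 ± 0.348), F11r (8.004 ± 0.902) and Jam2 (4.82 ± 0.900) came next, each apart from its neighbour in the order. These 7 genes lay above 58.9% to 90.7% of all genes tested on this scale.

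The lowest 3 genes were far below. Cxadr had 0.143 ± 0.0426 and Mpzl3 0.1346 ± 0.0449 CPM per kb, their libraries overlapped, and they lay above 3.59% and 3.21% of genes tested. Mpzl2 crossed them by genotype, with its 4 libraries running from 0.0123 to 0.676 CPM per kb. Both control libraries of Mpzl2 lay below every library of Cxadr and Mpzl3, and both vKO-labelled libraries lay above. With the length of the longest coding transcript in place of all exons, Cadm1 moved from position 5 to position 3 and Mpzl3 passed Cxadr, so the order of these genes depends on the length used.

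**Figure D5:**
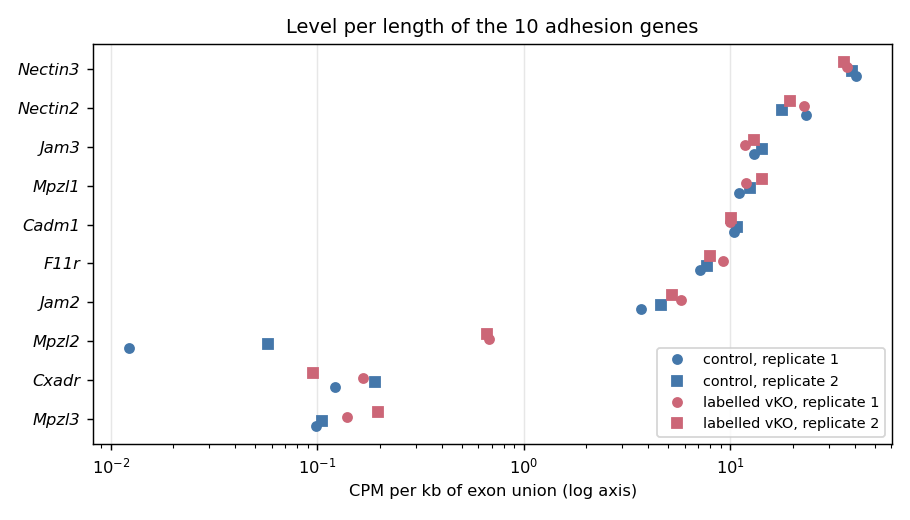
CPM per kb of annotated exon sequence (log axis) of the 10 adhesion genes in each library, ordered by their mean, with blue for control and red for labelled vKO. Nectin3 is highest at 35.5 to 40.6, and the 2 control points of Mpzl2 are the lowest of all.

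Other adhesion genes of the superfamily were compared to place the 10. Of 30 listed, 28 are in the table and 23 were tested, and the median log2 fold change was -0.04, with 11 above 0 and 12 below. Vcam1 was called higher and no gene was called lower, beside 0.279% of all genes tested called higher and 0.114% called lower. Unadjusted p-values under 0.05 were found for 2 higher and 3 lower genes of the 23, beside 14.1% of all genes tested in either direction. The groups did not overlap in 5 genes higher and 5 lower, beside 22.7% and 22.6% of all genes, so these counts lie near the background.

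Vcam1 (ENSMUSG00000027962), which encodes an adhesion protein for leukocyte integrins, rose in the vKO-labelled libraries. It had 35.6 and 42.6 CPM in the controls and 70.1 and 64.5 CPM in the vKO-labelled libraries, with log2 fold change 0.78 (SE 0.14, adjusted p = 0.0326 by edgeR's quasi-likelihood F test, Benjamini-Hochberg adjusted, higher in 2 of 2 libraries). The call was lost without vKO replicate 1 (log2 fold change 0.72, adjusted p = 0.243), and over all alternatives the adjusted p ran from 7.17e-07 to 0.243.

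Crtam encodes a receptor of the CADM1 protein that is known from T cells. It had 63.1 and 69.9 CPM in the controls and 41.4 and 47.4 CPM in the vKO-labelled libraries, with a log2 fold change of -0.58 (SE 0.14) at an adjusted p of 0.0939 by edgeR, which did not pass. It passed in 5 of the alternatives, each a fit that called a larger share of all genes than the 0.393% of the main fit. Among them were a DESeq2 Wald test (adjusted p = 0.0303, with 1.32% of genes called) and edgeR's F test with the replicate block (adjusted p = 0.00219, with 4.81%). By edgeR's F test without robust estimation it did not pass (adjusted p = 0.103). When 1 library was left out, its log2 fold change ran from -0.68 to -0.49. The ratio of Cadm1 to Crtam counts within a library was 1.72 and 1.60 in the controls and 2.51 and 2.21 in the vKO-labelled libraries.

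The next genes by p did not pass either. Emb, which encodes the basigin-like protein embigin, had 8.86 and 10.97 CPM in the controls and 15.1 and 14.6 CPM in the vKO-labelled libraries, a log2 fold change of 0.58 (SE 0.18) with edgeR's adjusted p at 0.178. Chl1, an adhesion gene of the L1 family, was the most abundant of the list by counts, with 780 and 748 CPM in the controls and 562 and 643 CPM in the vKO-labelled libraries. The log2 fold change of Chl1 was -0.34 (SE 0.12), with an adjusted p of 0.229 by edgeR. Clmp, which is related to Cxadr, had 5.73 and 5.60 CPM in the controls and 3.997 and 3.71 CPM in the vKO-labelled libraries, a log2 fold change of -0.56 (SE 0.23) with edgeR's adjusted p at 0.294. Nectin1 and Nectin4, the remaining nectins, had log2 fold changes of -0.08 (SE 0.24) and 0.41 (SE 0.49), and Nectin4 rested on 267 counts in vKO replicate 2 against 92 to 142 in the other libraries.

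Cytoplasmic partners of the family were listed as well. All 18 were tested, the median log2 fold change was 0.05, and 0 were called by edgeR at an adjusted p under 0.05, with 0 at an unadjusted p under 0.05, beside 0.393% and 14.1% of all genes tested. The groups did not overlap in 6 genes higher and 2 lower, beside 22.7% and 22.6%. The smallest p belonged to Epb41l3, which encodes a band 4.1 protein that binds the tail of CADM1, with 129 and 110 CPM in the controls and 108 and 89.7 CPM in the vKO-labelled libraries (log2 fold change -0.28, SE 0.14). Ptpn11, which encodes the phosphatase SHP2 that the product of Mpzl1 recruits, had a log2 fold change of 0.25 (SE 0.15). Mpp3, a scaffold gene of the MAGUK family, had 0.33 (SE 0.21). Afdn, the gene of the nectin scaffold afadin, had 59.7 and 64.3 CPM as group means, with a log2 fold change of 0.11 (SE 0.13).

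In the authors' deposited table, the log2 fold changes of the 10 adhesion genes had the same sign as in the edgeR fit and differed from it by at most 0.0362. Both rest on the same counts of the same libraries, so this closeness and the adjusted p below are no independent support. The table gave an adjusted p for 8 of the 10, leaving it empty for Mpzl3 and Cxadr, and 1 of the 8, Mpzl2, was under 0.05, beside 1.32% of all genes with such a value in the authors' deposited table.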

How the data were processed

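Total RNA of whole testes was depleted of ribosomal RNA and made into directional libraries, per the labels' protocols. HISAT2 2.1.0 and HTSeq 0.6.1p1 are named in the submitters' processing notes. The genome build and the strand setting are not given in the sources used here. The authors deposited raw counts per gene and library. Their table also holds a mean normalized count, a signal of counts divided by size factors, with log2 fold changes, a Wald statistic (a score), and a p-value and adjusted p-value, per the file headers, whose names are those of DESeq2.

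From the deposited counts, edgeR 4.0.16 in R 4.3.3 was run over the whole table, with TMM scaling, the filterByExpr filter, a quasi-likelihood F test of genotype with robust estimation, and Benjamini-Hochberg adjustment over 21132 genes. Calls mean an adjusted p under 0.05. The prior count of fitted log2 fold changes was 0.125, and the SE is the absolute log2 fold change divided by the square root of F. The fit was tested on simulated data.

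Coordinates, exon lengths, GC content and transcripts came from GENCODE M21 (GRCm38) by gene identifier, and the authors' build may differ. Similar transcripts were sought with blastn 2.17.0. The members and lists were chosen with earlier results of these data known. Named genes are Ythdf2, the 10 members, called genes and the 4 genes of smallest p in the adhesion and partner lists, the 5 genes nearest to Mpzl2, its neighbours within 100 kb, and called markers. Epcam, Krt8, Grhl2, Cldn4, Krt19, Pax2, Crisp1, Rnase10, Egfl7, Nectin1, Nectin4 and Afdn fall outside this rule and were chosen after their values were seen. A gene that this rule names is not reported here. The adhesion genes Cadm3 and Vsig2 and 5 marker genes were not analysed here. Leydig, myoid, macrophage and spermatogonia markers were summed as well. Their median log2 fold changes were 0.38, -0.05, 0.07 and 0.28, with 0 called by edgeR. At an unadjusted p under 0.05 were 4 of 8, 0 of 5, 0 of 8 and 3 of 11, beside 14.1% of all genes tested. In the other marker lists, these were 6 of 10 Sertoli markers, all higher, and 4 of 8 elongating spermatid markers, all lower. Further ones were 2 of 7 endothelial, 1 of 8 spermatocyte and 0 of 6 round spermatid markers. Of 11 duct epithelium markers tested, 1 was higher and 2 lower, and the 1 epididymal marker tested was lower. Alternatives were other scalings, filters and tests, a GC offset, the replicate number as a block, and leaving out each library.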

Additional observations from a re-analysis of the deposited data

How the results depend on the processing

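Of 139 recomputed log2 fold changes of the 10 adhesion genes over 14 alternatives, 132 kept their direction and their side of the threshold. One alternative, a prior count of 2, changes the fitted log2 fold change but not the p-value, so no call could move there. Mpzl3 and Cxadr had no adjusted p with the DESeq2 Wald test and were counted as not called. All alternatives use counts of the same 4 libraries on which Mpzl2 was chosen, so its calls are no independent support. Mpzl2 stayed called in the 13 alternatives that tested it, with log2 fold changes from 3.52 to 5.69, but a filter of at least 10 counts in every sample removes it by construction and left 0 of the 10 called. Nectin2 turned to -0.14 with the GC offset, to -0.14 with the GC offset and replicate block, to -0.13 without control replicate 2 and to -0.07 without vKO replicate 1, in a range from -0.13 to 0.24 when 1 library was left out. Cxadr turned to 0.11 without control replicate 2 and to 0.09 without vKO replicate 2, in a range from -0.71 to 0.11. The cause was not tested. The median of the 10 ran from 0.02 to 0.18. That of the other adhesion genes ran from -0.13 to 0.09 and that of the cytoplasmic partners from -0.01 to 0.16, so both changed sign.

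Calls over all genes were 59 higher and 24 lower. They were 181 and 37 with library totals alone, 137 and 80 with a DESeq2 1.42.0 Wald test, 75 and 62 with the GC offset, and 50 and 15 without robust estimation. Leaving out 1 library gave 30 to 1048 higher and 5 to 523 lower, with 1 to 2 of the 10 genes called. Those fits called from 0.160% to 6.82% of all genes tested. The 2 of the 10 came without control replicate 2, in a fit that called 4.93% of all genes. Each of those fits leaves 1 library in a group, which is assumed to vary like the others. The labels do not say what the replicate numbers mark, and the correlation across genes between same-numbered deviations was 0.0792, over only 2 pairs. With the replicate block there were 627 and 390 calls, and with the GC offset and replicate block 182 and 197. The block changed the call of none of the 10 genes. Alternatives for Wt1 and for genes of the adhesion and partner lists were added after seeing the data. When 1 library was left out, the log2 fold change of Chl1 ran from -0.44 to -0.25 and that of Emb from 0.43 to 0.75. Emb was called with the replicate block, in a fit that called 4.81% of all genes tested, beside 0.393% in the main fit. Depth limits Mpzl3, Cxadr and the control level of Mpzl2, each under 50 counts.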
